A study of Homo sapiens with 12 samples.

Results

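The response to gemcitabine of SUM159 cells that carry a hairpin against E4F1 was taken as the log2 change from the shE4F1 untreated group (shE4F1_NT) to the shE4F1 gemcitabine group (shE4F1_GEM). These groups hold 6 of the 12 libraries of the series, 3 each. SUM159 is an established triple-negative breast cancer line. All groups used here are this line, carrying either the control hairpin (shCTRL) or the E4F1 hairpin (shE4F1), and the treated groups received 140 nM gemcitabine for 24 h. The labels name a single hairpin against E4F1, so loss of E4F1 and an off-target effect of that hairpin cannot be told apart. Nothing in them ties a group's 3 libraries to different cultures, so the p-values may reflect technical spread alone. No deposited table compares the shE4F1 groups directly. For each gene, the log2 fold change in the authors' deposited table of shE4F1 untreated against shCTRL untreated was therefore subtracted from that of shE4F1 gemcitabine against shCTRL untreated, which left the shE4F1 response for 21080 genes.

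E4F1 is a zinc finger transcription factor linked to cell proliferation, pyruvate oxidation and checkpoint control. Gemcitabine is a deoxycytidine analogue that deoxycytidine kinase (DCK) phosphorylates. Its diphosphate inhibits ribonucleotide reductase and its triphosphate ends the growing DNA strand, so replication forks stall and the ATR-CHEK1 checkpoint holds cells in S phase. DNA damage can also switch on NF-kB, which drives cytokine genes, and nutrient or protein stress raises the translation of ATF4, which drives genes of amino acid supply and, through DDIT3 (CHOP), of cell death.

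The E4F1 gene (ENSG00000167967) lies on the plus strand of chromosome 16, from 2223566 to 2235742 in GRCh38. Its mRNA stood at about 209 normalized counts in untreated and 183 in treated shE4F1 cells, against 415 and 342 in the shCTRL groups. Such group levels were split from the mean normalized count of each deposited table with its fold change. They are approximate, with no SD, since no value per library was used. The untreated and treated levels come from different tables, so their ratio can differ from the response. Both shE4F1 levels were below both shCTRL levels. The response of E4F1 to gemcitabine in shE4F1 cells was -0.19 ± 0.37 (log2 ± SE, adjusted p = 1). In the authors' deposited table, the knockdown measured -0.99 ± 0.26 in untreated cells.

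The leading changes were a rise of DNA replication, recombination and E2F genes and a rise of NF-kB targets and inflammatory cytokines. A few stress genes such as INHBE, DDIT3 and PMAIP1 also rose. The falls included 4 mitotic genes, 3 YAP targets and 2 mitochondrial transfer RNA genes. A gene was called changed at a Benjamini-Hochberg adjusted p under 0.05 in a two-sided normal test over all 21080 genes, and "rose" and "fell" are used of called genes only. Of these genes 234 were called (1.11%), 195 rose (0.925%) and 39 fell (0.185%). A further threshold of 1 on the log2 scale was passed by 159 that rose and 13 that fell. The smallest called response was 0.67 in size, while the median response of all genes was -0.02.

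The SE used here counts the shCTRL untreated libraries in both tables, although they cancel in the response, and is therefore too large. Among 12634 genes with a mean normalized count of at least 50 in both tables its median was 0.243. A variance in which those libraries drop out, from 3 of the deposited tables, gave a median SE of 0.121, or 0.512 times as much. With it, 1463 genes of 20465 rose (7.15%) and 1468 fell (7.17%), so the share of rises among calls went from 83.3% to 49.9%. That variance was chosen after the data had been seen, and the counts it gives are added below as counts without the shared libraries. It assumes that the variances of the groups in a table add, which could not be checked here. For 8 genes, IL1A and ABCC9 among them, it was not positive, so these counts leave them out. The route through the shCTRL gemcitabine libraries gave the response within 0.1 for 98.5% of the 12634 genes, with a larger SE and 142 calls.

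**Figure D1:**
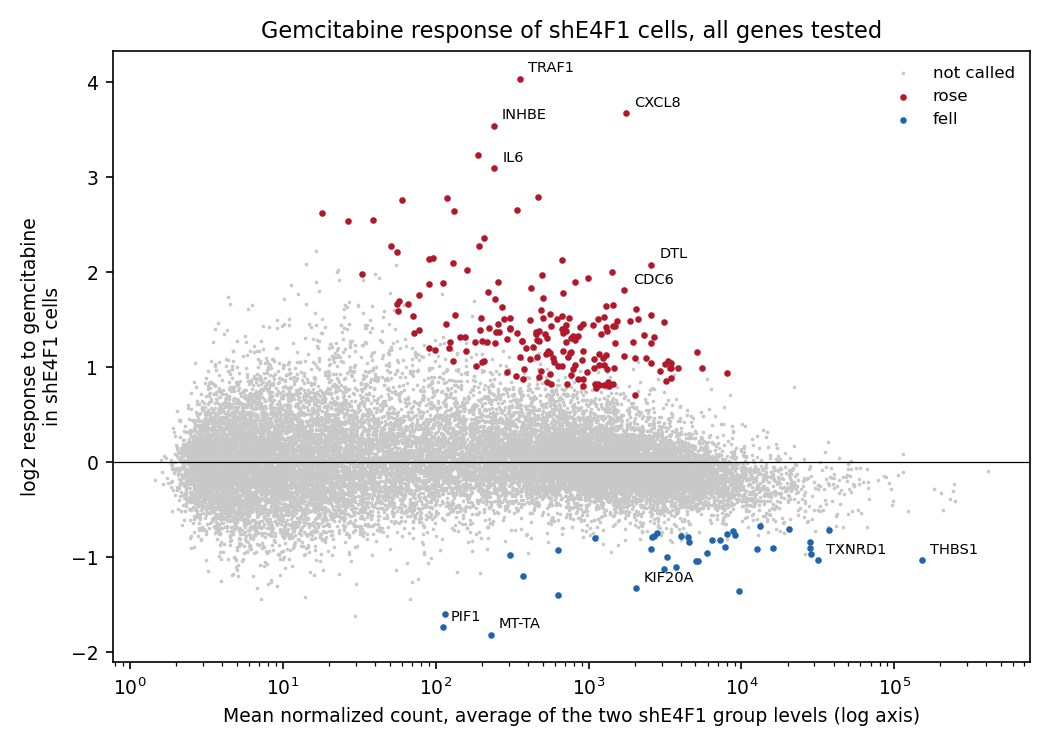
Log2 response to gemcitabine in shE4F1 cells (vertical axis) against the mean of the untreated and treated shE4F1 group levels in normalized counts (horizontal log axis), 1 point per gene. Red points rose and blue points fell; the 195 rises reach 4.04 (TRAF1) and the 39 falls reach -1.81 (MT-TA).

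The promoters of a few of the genes that led these groups are shown here because the groups are known as targets of E2F and of NF-kB. Each window runs from 250 bases before to 50 bases after the RefSeq start site (build GRCh38.p14), written 5′ to 3′ on the gene's own strand. Matches were searched on both strands. The 3 S-phase genes CDC6 (chr17:40287629-40287928, plus strand), E2F1 (chr20:33686336-33686635, minus strand) and EXO1 (chr1:241847954-241848253, plus strand) each hold 1 match, in capitals, to an E2F motif, searched as TTTCGCGC or TTTGGCGC. Counted from the start site as +1, the match begins at 8 in CDC6, -20 in E2F1 and 5 in EXO1.
CDC6: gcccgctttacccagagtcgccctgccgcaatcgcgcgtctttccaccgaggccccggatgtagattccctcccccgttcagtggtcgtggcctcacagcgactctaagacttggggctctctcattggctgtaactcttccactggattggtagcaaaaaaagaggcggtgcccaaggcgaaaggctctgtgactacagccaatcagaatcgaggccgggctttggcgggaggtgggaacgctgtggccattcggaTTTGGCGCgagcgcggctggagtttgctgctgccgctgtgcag
E2F1: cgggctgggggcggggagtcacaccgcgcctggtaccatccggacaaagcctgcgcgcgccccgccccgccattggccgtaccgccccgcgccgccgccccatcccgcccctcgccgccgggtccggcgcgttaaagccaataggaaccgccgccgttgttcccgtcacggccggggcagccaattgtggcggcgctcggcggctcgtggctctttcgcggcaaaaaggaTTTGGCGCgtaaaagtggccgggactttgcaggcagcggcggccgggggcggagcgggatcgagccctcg
EXO1: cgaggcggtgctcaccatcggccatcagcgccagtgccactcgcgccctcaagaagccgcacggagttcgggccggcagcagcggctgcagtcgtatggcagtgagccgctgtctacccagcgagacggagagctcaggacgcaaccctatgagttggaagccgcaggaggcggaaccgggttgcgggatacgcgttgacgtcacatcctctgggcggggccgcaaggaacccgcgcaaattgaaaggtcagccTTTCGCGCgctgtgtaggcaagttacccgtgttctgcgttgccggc
One of these E2F motifs lay in the window of 1.40% of the 27305 genes of the promoter table, and of 2.26% of the 11555 tested genes matched to it. Among the genes that rose, 18 of the 152 matched genes (11.8%) held it, and of the DNA replication genes 11 of 39 (28.2%).

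For the inflammatory genes, IL6 (chr7:22726950-22727249, plus strand) and CXCL3 (chr4:74038640-74038939, minus strand) are shown. The kappaB consensus matched at -73 in IL6 and, as 2 overlapping matches of opposite strand reading, from -79 in CXCL3. Capitals mark the matches.
IL6: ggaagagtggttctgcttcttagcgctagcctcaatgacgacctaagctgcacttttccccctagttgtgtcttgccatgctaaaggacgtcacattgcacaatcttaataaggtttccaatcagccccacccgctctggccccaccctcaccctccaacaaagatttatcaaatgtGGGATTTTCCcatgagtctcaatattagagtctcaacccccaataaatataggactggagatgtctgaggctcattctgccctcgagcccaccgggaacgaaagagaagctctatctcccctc
CXCL3: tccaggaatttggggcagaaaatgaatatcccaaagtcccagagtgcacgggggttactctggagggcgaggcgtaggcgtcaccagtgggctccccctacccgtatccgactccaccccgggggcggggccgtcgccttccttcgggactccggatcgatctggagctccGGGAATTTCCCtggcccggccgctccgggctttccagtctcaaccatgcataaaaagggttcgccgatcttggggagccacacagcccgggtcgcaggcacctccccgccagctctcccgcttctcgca
The kappaB consensus lay in 7.09% of all windows taken by gene and in 8.71% of those of tested genes. It lay in 28 of 152 matched genes that rose (18.4%) and in 25 of 42 matched members of the chemokine and NF-kB lists (59.5%). The NF-kB list was drawn up as known targets and feedback genes, the chemokine list by gene family.

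Among the falls, PIF1 (chr15:64825598-64825897, minus strand) is shown with the cell cycle homology element TTTGAA, a short motif of late cell cycle promoters, in capitals at -20.
PIF1: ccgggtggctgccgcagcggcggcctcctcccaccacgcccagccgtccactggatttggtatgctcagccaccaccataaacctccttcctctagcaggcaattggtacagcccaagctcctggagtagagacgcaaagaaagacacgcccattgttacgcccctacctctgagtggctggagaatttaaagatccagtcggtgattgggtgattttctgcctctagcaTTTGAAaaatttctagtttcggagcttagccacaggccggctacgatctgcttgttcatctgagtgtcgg
Taken by gene, this motif lay in 18.2% of all genes of the promoter table and in 14.6% of the tested genes matched to it. The motif lay in 12 of 31 matched genes that fell (38.7%), in 24 of 152 that rose (15.8%) and in 28 of 38 matched G2/M genes (73.7%). These letters are matches only, and binding was not measured.

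Many of the genes that load and fire replication origins rose. Of 47 tested genes for licensing, helicase and polymerase functions, 24 rose and none fell, and the median response was 0.81 (39 rose and 1 fell without the shared libraries). CDC6, which loads the MCM helicase onto origins, stood at 754 normalized counts in untreated and 2676 in treated shE4F1 cells, a response of 1.81 ± 0.22 (adjusted p = 2.08e-12). CDT1, its partner in loading, went from 155 to 453, a response of 1.52 ± 0.31 (adjusted p = 0.000293). The clamp loader subunit RFC2 went from 644 to 1866, a response of 1.53 ± 0.21 (adjusted p = 4.53e-10). The treated level was above the untreated one for all 3.

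Some origin recognition, helicase and polymerase subunits were among the genes that rose. ORC1 and ORC6 of the origin recognition complex rose by 1.35 and 1.51 on the log2 scale. Its other subunits ORC2, ORC3, ORC4 and ORC5 (-0.09, 0.19, -0.35 and 0.25) were not called. Without the shared libraries ORC4 fell (adjusted p = 0.00835). Of the 6 MCM helicase subunits, MCM2 (1.26), MCM3 (1.00), MCM4 (1.05), MCM5 (1.43) and MCM7 (1.00) rose, whereas MCM6 had a response of 0.47 and was not called. MCM10 (1.51), CDC45 (1.45), GINS2 (1.36) and GINS4 (1.28), which turn the loaded helicase into a moving one, rose as well. So did the primase subunit PRIM1 (1.33), the polymerase alpha subunit POLA2 (1.30), the DNA ligase LIG1 (1.27) and the single-strand binding protein RPA2 (1.12). PCNA, the sliding clamp, had 0.61 and was not called, and POLE2, POLA1 and POLD1 (0.56, 0.73 and 0.75) were not called either. Without the shared libraries MCM6, PCNA, POLE2, POLA1 and POLD1 all passed the threshold (adjusted p = 5.15e-05, 7.36e-08, 0.00326, 1.15e-10 and 7.22e-06). Named outside the rule for genes, after its values were seen, DTL, a subunit of the ubiquitin ligase that degrades CDT1, went from 966 to 4153 (2.08 ± 0.24, adjusted p = 8.91e-14).

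Among the E2F factors E2F1, E2F2, E2F7 and E2F8 rose, while E2F3, E2F4, E2F5 and E2F6 (-0.28 to 0.02) were not called. E2F1 went from 340 to 1288 normalized counts (1.90 ± 0.23, adjusted p = 2.66e-13). E2F2 went from 244 to 1095 (2.12 ± 0.28, adjusted p = 1.79e-10), the largest rise among the cell cycle lists. E2F8, an atypical repressor, went from 130 to 414 (1.63 ± 0.30, adjusted p = 1.68e-05). With CCNE2 (1.54), E2F7 (1.49) and RBL1 (0.80), which encode a G1/S cyclin, a repressor and a pocket protein, 6 of 27 G1/S genes rose and none fell, with a median of 0.02 (9 rose and 3 fell without the shared libraries). The CDK inhibitor CDKN1A (p21) stood at 1214 and 1668 with a response of 0.45 ± 0.25 and was not called (adjusted p = 0.888, or 0.00796 without the shared libraries).

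Homologous recombination and Fanconi anaemia genes, which rebuild broken forks, made up the next group. Of 33 tested, 14 rose and none fell, with a median of 0.77 (24 rose and 1 fell without the shared libraries). EXO1, the nuclease that resects DNA ends, went from 407 to 1585 normalized counts (1.94 ± 0.25, adjusted p = 1.04e-11). XRCC3, a recombination factor, went from 182 to 656 (1.84 ± 0.26, adjusted p = 9.51e-10). BRCA2, a mediator of strand invasion, went from 366 to 979 (1.40 ± 0.25, adjusted p = 1.33e-05). BRCA1 (1.34), EME1 (1.40), RAD54L (1.37) and FANCB (1.27) rose too. The member that moved the other way was ATRX, a chromatin remodeler, at -0.47, not called with the main SE.

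Of 28 fork protection and checkpoint genes 3 rose, with a median of 0.11 (6 rose and none fell without the shared libraries). These were CLSPN, the claspin adaptor of CHEK1 (389 to 1042, 1.38 ± 0.32, adjusted p = 0.00362), CDC25A, the phosphatase that CHEK1 marks for degradation (1084 to 3150, 1.51 ± 0.21, adjusted p = 1.54e-09), and PKMYT1, an inhibitory kinase of CDK1 (238 to 737, 1.61 ± 0.38, adjusted p = 0.00464). CHEK1 itself stood at 1854 and 1944 with a response of 0.07 ± 0.24 (adjusted p = 1). H2AFX, the histone variant phosphorylated at breaks, had 0.19 ± 0.29. Of 22 translesion and end joining genes 1 rose, POLQ, the polymerase of microhomology-mediated joining (768 to 1581, 1.02 ± 0.24, adjusted p = 0.00379). Without the shared libraries 5 of these rose and 3 fell.

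The replication-dependent histone genes did not share this rise. None of 33 was called in either direction (4 fell without the shared libraries), 30 had a negative response and the median was -0.32. Their mRNAs mostly lack a poly(A) tail, and 13 of the 33 had a mean of at least 50 in this poly(A)-selected library type.

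Mitotic genes were split. Among 45 G2/M and mitosis genes, 4 fell and 1 rose, and the median was 0.02 (10 fell and 13 rose without the shared libraries). CCNB1, the cyclin of mitotic entry, went from 4351 to 2174 normalized counts and fell by 1.00 ± 0.27 on the log2 scale (adjusted p = 0.0276). KIF20A, a kinesin of cytokinesis, went from 2925 to 1140 (-1.33 ± 0.35, adjusted p = 0.0217), and CCNF, a cyclin F-box protein, from 404 to 205 (-0.97 ± 0.24, adjusted p = 0.01). PLK1, the polo kinase, was the other member that fell (-0.80 ± 0.22, adjusted p = 0.0363). MYBL2, whose protein B-MYB is itself an E2F target that activates mitotic genes, went from 629 to 1981 (1.65 ± 0.22, adjusted p = 4.05e-10). MKI67 was at 6476 and 8570 (0.40 ± 0.24, adjusted p = 0.986, or 0.000171 without the shared libraries). Outside the list, CCNB3, a cyclin of the B family, went from 920 to 344 (-1.39 ± 0.33, adjusted p = 0.00383) and the helicase PIF1 from 171 to 50.7 (-1.74 ± 0.31, adjusted p = 1.13e-05). In bulk RNA, a shift in the share of cells in a cell cycle phase and a change of RNA per cell cannot be told apart.

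Gemcitabine handling genes mostly stayed below the threshold. Of 26 tested, 2 rose and none fell, with a median of 0.13 (8 rose and 1 fell without the shared libraries). RRM2, the ribonucleotide reductase subunit made in S phase, went from 3137 to 7092 (1.16 ± 0.26, adjusted p = 0.00237), and thymidine kinase TK1 from 1503 to 3619 (1.25 ± 0.29, adjusted p = 0.00237). RRM1, the larger partner of RRM2, was at 4441 and 6461 (0.53 ± 0.28, adjusted p = 0.847). DCK, which activates the drug, was at 1173 and 1570 (0.41 ± 0.26, adjusted p = 1), and CDA, which inactivates it, at 351 and 485 (0.46 ± 0.29, adjusted p = 1). Without the shared libraries, RRM1, DCK and CDA passed the threshold (adjusted p = 1.25e-07, 0.000841 and 0.0266).

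**Figure D2:**
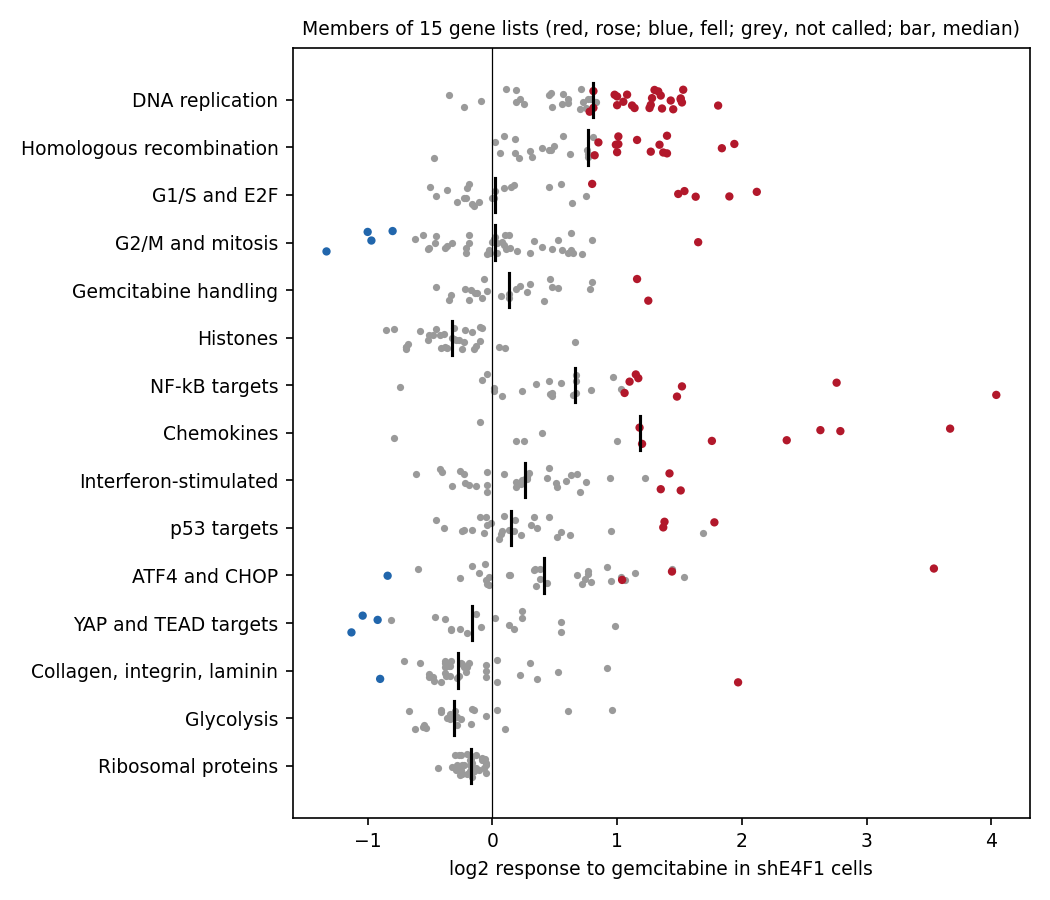
Log2 response to gemcitabine in shE4F1 cells (horizontal axis) of the tested members of 15 gene lists, 1 point per gene with vertical jitter; red points rose, blue points fell, grey points were not called, and the black bar is the list's median. The DNA replication and homologous recombination lists lie mostly to the right of 0 (medians 0.81 and 0.77), and all 36 ribosomal protein genes lie to the left of it.

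Cytokine genes were among the largest rises. CXCL8 (interleukin-8, chromosome 4, 73740506 to 73743716, plus strand, GRCh38), the main neutrophil chemokine, stood at 230 normalized counts in untreated and 3270 in treated shE4F1 cells, a response of 3.67 ± 0.35 (adjusted p = 1.4e-21). Its size depended on the route: it was 2.57 through the shCTRL gemcitabine libraries and 5.68 from group means without moderation. IL6 (chromosome 7, 22725884 to 22732002, plus strand) went from 47.9 to 433 (3.09 ± 0.35, adjusted p = 1.35e-14). IL1A, an alarm cytokine of damaged cells, went from 88.7 to 587 (2.66 ± 0.41, adjusted p = 6.1e-08, 1.91 by the other route). LIF, of the interleukin 6 family, went from 61.5 to 258 (2.02 ± 0.40, adjusted p = 0.00016). These 3 were the rises among 21 genes of the interleukin 1 and 6 families, colony-stimulating factors and their receptors, where the median was 0.11. Without the shared libraries 7 rose and 5 fell, a count that leaves out IL1A, which had no positive variance.

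Of 13 tested CXC and CC chemokines 7 rose and none fell, with a median of 1.18 (7 rose and none fell without the shared libraries). CXCL3, a ligand of CXCR2, went from 64.0 to 350 (2.36 ± 0.38, adjusted p = 3.49e-07), and CXCL2, which binds the same receptor, from 234 to 547 (1.20 ± 0.29, adjusted p = 0.00464). The others that rose were CXCL10, CXCL1, CXCL11 and CCL20, by 2.79, 2.63, 1.76 and 1.18. CXCL1 was low, at 2.85 and 33.0 normalized counts. Only 6 of the 13 chemokines had a mean of at least 50.

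The NF-kB list followed, with 8 of 28 genes that rose, none that fell and a median of 0.66 (21 rose and none fell without the shared libraries). RELB, the transcription factor of the alternative pathway, went from 251 to 751 (1.52 ± 0.35, adjusted p = 0.00362). TNFAIP3 (A20), the deubiquitinase that shuts the pathway off, went from 1614 to 4606 (1.48 ± 0.23, adjusted p = 2.5e-07). The inhibitor NFKBIE went from 331 to 758 (1.17 ± 0.26, adjusted p = 0.00184). The other members that rose were TRAF1 (4.04), the adhesion molecules VCAM1 (2.76) and ICAM1 (1.10), NFKBIB (1.15) and NFKB2 (1.06), so the list's rises include both effectors and inhibitors. TRAF1, a receptor adaptor, went from 35.5 to 672 and had the largest response of all called genes. Outside the list, TNFRSF9, the 4-1BB receptor, went from 31.4 to 347 (3.23 ± 0.49, adjusted p = 5e-08). Its response was 2.24 by the other route and 3.90 without moderation.

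Few interferon-stimulated genes were called. Of 35 tested, 3 rose and none fell, with a median of 0.26 (10 rose and 1 fell without the shared libraries). These were IRF1 (691 to 1896, 1.42 ± 0.27, adjusted p = 4.6e-05), the RNA sensor OAS3 (666 to 1750, 1.35 ± 0.27, adjusted p = 0.000202) and the pro-apoptotic XAF1 (586 to 1711, 1.51 ± 0.36, adjusted p = 0.00533). None of 17 genes of MHC class I presentation was called, with a median of 0.23; CD274 (PD-L1) had 0.68 (6 rose and none fell without the shared libraries).

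Among 30 p53 targets 3 rose, with a median of 0.15 (9 rose and 1 fell without the shared libraries). PMAIP1 (NOXA), a BH3-only killer protein, went from 304 to 1062 (1.78 ± 0.32, adjusted p = 1.47e-05). AEN, an apoptotic nuclease, went from 730 to 1926 (1.38 ± 0.26, adjusted p = 6.91e-05), and DDB2, a damage recognition factor, from 145 to 377 (1.37 ± 0.29, adjusted p = 0.000704). Of 29 apoptosis regulators and death receptors PMAIP1 rose and the receptor TNFRSF1A fell (3286 to 1906, -0.78 ± 0.21, adjusted p = 0.0234). Without the shared libraries 4 of these rose and 2 fell.

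The ATF4 and CHOP list held the second largest rise of genes with a mean of at least 50. INHBE (chromosome 12, 57452323 to 57459280, plus strand), an activin E subunit and known ATF4 target, went from 38.2 to 440 normalized counts (3.54 ± 0.53, adjusted p = 2.84e-08). DDIT3 (CHOP) went from 790 to 2164 (1.44 ± 0.32, adjusted p = 0.00146), and CEBPG, a partner of ATF4, from 2045 to 4230 (1.04 ± 0.27, adjusted p = 0.0185). The glutamine transporter SLC38A2 fell (36312 to 20192, -0.84 ± 0.21, adjusted p = 0.0107). In all, 3 of 34 genes rose and 1 fell, with a median of 0.41 (18 rose and 2 fell without the shared libraries). ATF4 mRNA itself was at 4126 and 3429 (-0.26 ± 0.21, adjusted p = 1). TRIB3 and ASNS, an inhibitor and the asparagine synthetase of this pathway, had 1.03 ± 0.35 and 0.92 ± 0.30 and were not called with the main SE. Without the shared libraries both passed the threshold (adjusted p = 6.59e-14 and 7.52e-13). None of 20 aminoacyl-tRNA synthetase genes and none of 23 unfolded protein response genes was called, with medians of 0.11 and -0.17. Without the shared libraries 7 synthetase genes rose and 1 fell, and 2 unfolded protein response genes rose and 6 fell.

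**Figure D3:**
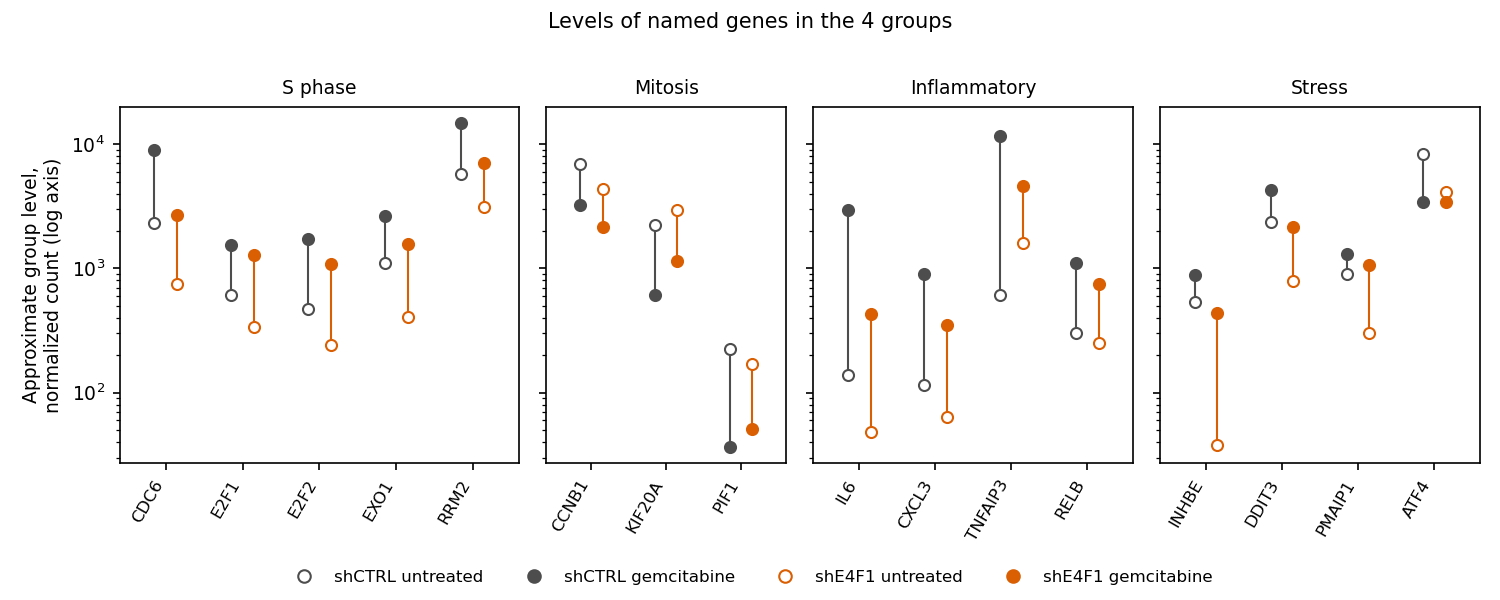
Approximate group level in normalized counts (vertical log axis) of 16 named genes in the untreated (open) and gemcitabine (filled) groups of shCTRL (grey) and shE4F1 (orange) cells; a line joins the levels of 1 line and no error is drawn because no value per library was used. INHBE goes from 38.2 to 440 in shE4F1 cells, and KIF20A from 2925 to 1140.

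Of 20 YAP and TEAD targets 3 fell and none rose, with a median of -0.17 (8 fell and 3 rose without the shared libraries). CTGF, a matricellular growth factor, went from 4322 to 1945 (-1.13 ± 0.31, adjusted p = 0.0257). The tissue factor gene F3 went from 6781 to 3243 (-1.04 ± 0.28, adjusted p = 0.0231), and CRIM1 from 3359 to 1786 (-0.92 ± 0.26, adjusted p = 0.0431). None of the 3 was called by the route through the shCTRL gemcitabine libraries, where their responses were -1.10, -1.03 and -0.93. Another target, CYR61, had -0.81 ± 0.30 and ANKRD1 0.98 ± 0.29, neither of them called with the main SE. Without the shared libraries both passed the threshold (adjusted p = 7.33e-09 and 3.83e-07).

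Of 36 collagen, integrin and laminin genes COL8A1 fell (36438 to 19406, -0.90 ± 0.22, adjusted p = 0.00796) and LAMB3, a laminin chain, rose (196 to 794, 1.97 ± 0.33, adjusted p = 1.83e-06). The median was -0.27, and without the shared libraries 14 fell and 2 rose. PLAU, the urokinase gene, was the 1 of 16 protease genes that rose (819 to 1686, 1.02 ± 0.21, adjusted p = 0.000384). Without the shared libraries 2 protease genes rose and 3 fell. The TGF-beta receptor TGFBR2 fell (25500 to 15581, -0.70 ± 0.19, adjusted p = 0.026). Of the activin and TGF-beta list of 31 only INHBE rose (3 rose and 5 fell without the shared libraries). INHBA, the activin A subunit, was at 27.8 and 96.8 (1.66 ± 0.60) and was not called (adjusted p = 0.251, or 0.000312 without the shared libraries).

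Growth factor and early response genes gave single calls with the main SE. HBEGF, a ligand of the EGF receptor, rose (134 to 281, 1.06 ± 0.30, adjusted p = 0.0326), 1 of 12 in its list. In that list 3 rose and 1 fell without the shared libraries. DUSP1, a MAP kinase phosphatase, fell (10122 to 5963, -0.76 ± 0.20, adjusted p = 0.0232), 1 of 30 in its list. Here 9 rose and 1 fell without the shared libraries. Of 22 growth arrest genes KLF10 rose (5479 to 10657, 0.94 ± 0.23, adjusted p = 0.00515) and FOXO1 fell (8266 to 4648, -0.82 ± 0.22, adjusted p = 0.0255). Without the shared libraries 2 of them rose and 9 fell.

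Other genes that fell were THBS1, a thrombospondin (204303 to 99230, -1.03 ± 0.21, adjusted p = 0.000202), TXNRD1, the cytosolic thioredoxin reductase (42672 to 20777, -1.03 ± 0.19, adjusted p = 1.28e-05), and PIK3R1, the regulatory subunit of PI3 kinase (38005 to 19394, -0.96 ± 0.19, adjusted p = 0.000105). They were named after their values were seen. By the rule, FAM65B (13870 to 5300, -1.36 ± 0.29, adjusted p = 0.000576) and the keratin KRT75 (5121 to 2347, -1.10 ± 0.30, adjusted p = 0.0241) were among the 10 largest falls.

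The remaining large rises had no list of their own. CLDN1, a tight junction claudin, went from 117 to 814 (2.79 ± 0.66, adjusted p = 0.0043), with 2.20 by the other route and 4.77 without moderation. ABCC9, a potassium channel regulator, went from 33.1 to 231 (2.65 ± 0.57, adjusted p = 0.000958), with 1.79 by the other route. CFAP58, a cilium protein, went from 46.6 to 211 (2.10 ± 0.38, adjusted p = 1.2e-05), and the long RNA RP11-875O11.3 from 63.7 to 319 (2.28 ± 0.31, adjusted p = 5.83e-10).

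The mitochondrial chromosome supplied the largest fall. MT-TA, the alanine transfer RNA gene, went from 357 to 100 normalized counts (-1.81 ± 0.29, adjusted p = 2.7e-07), and MT-TP, the proline transfer RNA gene, from 173 to 54.7 (-1.60 ± 0.45, adjusted p = 0.0335). The libraries were poly(A)-selected, so counts on these genes need not measure mature transfer RNA. MTND6P3, a nuclear pseudogene of MT-ND6 whose reads may be split from it, went from 520 to 222 (-1.20 ± 0.35, adjusted p = 0.0483). None of the 13 mitochondrial mRNAs was called, with a median of -0.28 (7 fell without the shared libraries).

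Metabolic and housekeeping lists gave no calls with the main SE. None was called among 31 pyruvate and TCA cycle genes (median -0.15), 24 glycolysis genes (-0.31), 43 respiratory chain genes (-0.10), 21 cholesterol synthesis genes (-0.18), 34 nucleolar genes (-0.05) and 15 PIKK and TTT genes (0.00). Without the shared libraries 12 glycolysis genes fell and 1 rose, 3 respiratory chain genes fell and 1 rose, and 2 PIKK and TTT genes fell and 1 rose. In the same count 6 pyruvate and TCA cycle, 8 ribosomal protein, 5 nucleolar and 5 cholesterol synthesis genes fell and none rose. The 36 ribosomal protein genes had a median of -0.17 and a range of -0.44 to -0.05, with no call, also negative in all 36 after centring on the median gene. Across all genes 1350 had an unadjusted p under 0.05.

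Cell type marker lists gave no call with the main SE. Without the shared libraries, 1 luminal, 2 basal and 2 mesenchymal markers rose, 1 basal, 3 mesenchymal and 1 endothelial marker fell, and no blood cell marker was called. The 8 basal markers had responses of -0.55 to 0.60 and the 8 luminal markers of -0.29 to 0.87, the highest being XBP1 (adjusted p = 0.0796, or 3.14e-16 without the shared libraries). ESR1, the estrogen receptor gene whose protein triple-negative tumours lack, was at 12.7 and 16.1 normalized counts, and the epithelial cadherin gene CDH1 at 5.40 and 4.60. The 20 mesenchymal and stem-like genes had a median of -0.15 and a range of -0.60 to 1.29. Of 10 blood cell markers 3 were tested, PTPRC, CD14 and LYZ, each at 23.9 normalized counts or fewer in both shE4F1 groups. Of 9 endothelial markers 5 were tested, with PECAM1 at 266 and 231 and KDR at 3008 and 1793 (-0.73 ± 0.28, adjusted p = 0.362, or 7.34e-09 without the shared libraries).

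The response in shE4F1 cells was then set against that in shCTRL cells through the knockdown effect under gemcitabine minus the knockdown effect in untreated cells. These 2 deposited tables share no library, so its SE repeats none of them. Of 20923 genes 1137 were called, 587 with the higher response in shE4F1 cells (2.81%) and 550 with the lower (2.63%). After centring on the median gene the split was 390 higher and 714 lower. Of the 234 genes called in the shE4F1 response 58 were also called here. Both tests use the shE4F1 libraries and subtract the same untreated knockdown value. Their errors are therefore shared, and neither the overlap nor its direction is independent evidence. Of the 44 of them that rose, the response was higher in shE4F1 cells for 27 and lower for 17.

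ATF4 and CHOP genes had the higher response in shE4F1 cells. Of 34, 26 were called higher and none lower, with a median difference of 1.04 (24 after centring, 14 through the table of both changes). Among called genes with a mean of at least 50 INHBE had the most positive difference, 2.92 ± 0.50 (adjusted p = 1.52e-06). In the authors' deposited table its response in shCTRL cells was 0.59 ± 0.37. Its approximate levels in the untreated and treated shCTRL groups were 538 and 887 normalized counts. CHAC1, which degrades glutathione, differed by 2.88 ± 0.45 (adjusted p = 6.06e-08). It had -1.68 ± 0.25 in the authors' deposited table for shCTRL cells and 1.14 ± 0.49, not called with the main SE, in shE4F1 cells. DDIT4, an mTOR inhibitor, differed by 2.54 ± 0.19. It had -3.06 ± 0.17 in the authors' deposited table for shCTRL cells and -0.60 ± 0.19, not called with the main SE, in shE4F1 cells. ATF4 itself differed by 1.05 ± 0.18 (adjusted p = 3.44e-06). For ATF4 the authors' deposited table gives -1.28 ± 0.15 in shCTRL cells. Before treatment these genes were lower in shE4F1 cells, with a median of -1.53 over the 34 in the authors' deposited table. The treated levels of ATF4 were 3429 in shE4F1 and 3423 in shCTRL cells. Of 20 aminoacyl-tRNA synthetase genes 9 were called higher and none lower (1 through the table of both changes).

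NF-kB targets had the lower response in shE4F1 cells where they differed. Of 28, 9 were called lower and none higher, with a median difference of -0.41, and 2 of the 13 chemokines were called lower. Through the table of both changes 2 and none were called. TNFAIP3 differed by -2.70 ± 0.23 (adjusted p = 1.58e-27), with 4.08 ± 0.19 in shCTRL cells per the authors' deposited table, and its untreated level was 1614 in shE4F1 against 609 in shCTRL cells. IL6 differed by -1.16 ± 0.31 (adjusted p = 0.00802), with 4.12 ± 0.22 in shCTRL cells (the authors' deposited table). CXCL8 differed by -2.37 ± 0.42 (adjusted p = 4.62e-06), or -1.27 through the table of both changes. For CXCL3, RELB and IRF1 the differences were -0.44 ± 0.34, -0.27 ± 0.29 and -0.24 ± 0.23, none of them called.

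INHBA, whose mean was below 50, differed by -3.97 ± 0.50 (adjusted p = 3.91e-12), with 5.26 ± 0.33 in the authors' deposited table for shCTRL cells. COL3A1, a fibrillar collagen, was at 75.7 and 78.2 in shE4F1 cells and differed by -3.48 ± 0.36. IL7R, the interleukin 7 receptor, differed by -2.96 ± 0.33, and the protease ADAMTS1 by -2.69 ± 0.22. F3 fell in shE4F1 cells and had 0.08 ± 0.16 in shCTRL cells per the authors' deposited table, a difference of -1.11 ± 0.25 (adjusted p = 0.000611). CDKN1A differed by -0.92 ± 0.22 (adjusted p = 0.00144), with 1.36 ± 0.17 in shCTRL cells (the authors' deposited table).

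Some S-phase genes differed as well. Of 47 DNA replication genes 6 were called higher in shE4F1 cells and none lower, with a median difference of 0.22, and of 33 recombination genes 7 were called higher and none lower, with a median of 0.38. After centring these counts were 3 and 4, and through the table of both changes none and 1. PKMYT1 differed by 1.25 ± 0.31 (adjusted p = 0.00316), CDT1 by 1.04 ± 0.27 (adjusted p = 0.00593) and EXO1 by 0.73 ± 0.21 (adjusted p = 0.0183). CDC6 and E2F2 differed by -0.08 ± 0.20 and 0.34 ± 0.24 and were not called. In untreated cells the replication list had a median of -0.87 for the knockdown in the authors' deposited table. PMAIP1 differed by 1.26 ± 0.27 (adjusted p = 0.000284), with 0.52 ± 0.21 in the authors' deposited table for shCTRL cells. None of the 6 replication-dependent histone genes called in this comparison, of 32 tested, was lower in shE4F1 cells, HIST1H2AC leading with 2.64 ± 0.26. HIST1H2AC had -2.99 ± 0.24 in shCTRL cells (the authors' deposited table) and -0.52 ± 0.27, not called with the main SE, in shE4F1 cells.

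**Figure D4:**
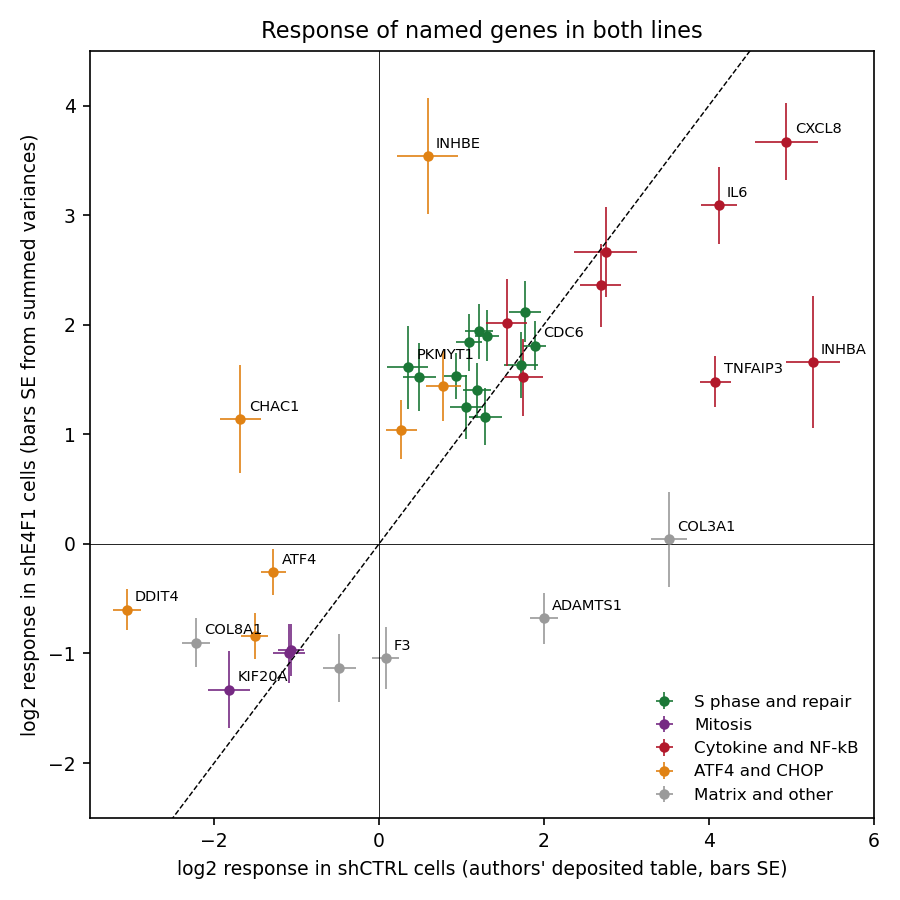
Log2 response of 35 named genes in shCTRL cells (horizontal axis, authors' deposited table) and in shE4F1 cells (vertical axis), with bars of 1 SE and a dashed line of equal response. INHBE, CHAC1 and DDIT4 lie above the line and INHBA, COL3A1 and TNFAIP3 below it, while CDC6 lies near it.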

How the data were processed

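Polyadenylated RNA of 12 SUM159 libraries, 4 groups of 3, was sequenced with a stranded kit, per the labels. The submitters' processing notes name TopHat2 2.1.1 with Bowtie2 2.2.9 and the build GRCh38.p7, HTSeq 0.9.0, and DESeq2 1.14.1 in R 3.4.0. Neither the design formula nor how strand was counted is stated, so antisense and near-identical genes are uncertain.

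The 4 tables deposited by the authors give, per the file headers, a mean normalized count (a signal averaged over the 2 groups), the log2 fold change and its SE, a Wald score, and a p-value with its adjusted p-value. Fold changes of low genes are pulled towards 0 in them. A count table has 12 columns whose names match no label. None was used, so values and depth per library are unknown here and precision is given by the SE.

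Responses and differences were computed from the deposited log2 values in Python 3.11.15 (scipy 1.17.1, numpy 2.4.6, pandas 2.3.3, matplotlib 3.10.9). Each was divided by the root of the summed variances for a two-sided normal test, with Benjamini-Hochberg adjustment over all genes. The test was tried on simulated data. Group levels were rescaled to the table of untreated knockdown. The alternatives were halved variances, other routes through the tables, a minimum mean of 50, a known adjusted p in both tables, centring, and an adjusted p under 0.01. A variance from 3 tables and means without moderation were added after seeing the data.

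The 39 gene lists and the genes named were chosen with earlier results of these data known. Of 989 listed genes 924 were matched by symbol, 1 by an older symbol, and 64 had no p in both tables. The text names the 10 largest rises and falls with a mean of at least 50, the 3 largest of each list, the 5 largest differences of each direction and 15 fixed genes. A few genes that this rule names, and the list of E4F1 targets, are not reported here. Any other gene in the text was named after its values were seen. Promoters come from RefSeq (GRCh38.p14) and gene positions from GENCODE release 29.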

Additional observations from a re-analysis of the deposited data

Results flagged for a closer look

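Among the genes that the naming rule picked, 33 had a response to gemcitabine called different between shE4F1 and shCTRL cells. The response in shE4F1 cells was higher for 20 of them and lower for 13. Over all 20923 genes, 2.81% were called higher and 2.63% lower. Genes named after their values were seen are not in this count, though some were called too, such as TRIB3 (2.50) and ANKRD1 (-2.44). All 33 had the same sign through the table of both changes, where 15 were still called with its larger SE: INHBE, CHAC1, DDIT4, ATF4, HIST1H2AC, RP11-442H21.2, COL8A1, INHBA, COL3A1, IL7R, TNFAIP3, ADAMTS1, ADM, CFAP58 and HBEGF.

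Among stress genes, the difference (shE4F1 minus shCTRL, log2) was 2.92 for INHBE, 2.88 for CHAC1, 2.54 for DDIT4, 1.05 for ATF4, 0.77 for CEBPG and 0.70 for SLC38A2. For genes of death and growth arrest it was 1.26 for PMAIP1, 1.23 for XAF1 and 0.66 for FOXO1, against -0.92 for CDKN1A. DDIT4, ATF4, SLC38A2 and FOXO1 had a negative response in both shE4F1 and shCTRL cells, less negative in shE4F1 cells. For S-phase and repair genes it was 1.25 for PKMYT1, 1.04 for CDT1, 0.75 for XRCC3, 0.73 for EXO1, 0.61 for RFC2, 0.59 for E2F1 and 0.57 for MYBL2.

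The inflammatory genes lay on the other side, with -2.70 for TNFAIP3, -2.37 for CXCL8, -1.16 for IL6 and -2.96 for IL7R. Secreted and matrix genes were divided, with -3.97 for INHBA, -3.48 for COL3A1, -2.69 for ADAMTS1, -2.62 for ADM, -1.55 for HBEGF, -1.11 for F3 and -1.01 for LAMB3, but 1.37 for COL8A1. The others were 2.64 for HIST1H2AC, 2.60 for RP11-442H21.2, 1.04 for FAM65B and -2.59 for CFAP58. COL8A1, HIST1H2AC, RP11-442H21.2 and FAM65B had a negative response in both shE4F1 and shCTRL cells, less negative in shE4F1 cells. INHBE, CHAC1, HIST1H2AC, RP11-442H21.2, DDIT4, COL3A1, IL7R, TNFAIP3, ADAMTS1 and ADM were named for these differences, the 5 most positive and 5 most negative among called genes with a mean of at least 50. INHBA, with a lower mean, was named whatever its result.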

How the results depend on the processing

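For the gemcitabine response of shE4F1 cells (234 calls, 195 higher, 39 lower, 172 by at least 1), halved variances gave 1049 calls (727 higher, 322 lower, 320 by at least 1), and the variance from 3 tables gave 2931 (1463, 1468 and 344). The route through the shCTRL gemcitabine libraries gave 142 calls with 7 lower, and an adjusted p under 0.01 gave 145 with 11 lower. All 142 and all 145 were among the 234, as were 232 of the 2931, each in the same direction. A minimum mean, a known adjusted p and centring kept the counts within 1.5 times. For the difference between responses (1137 calls, 587 higher, 550 lower, 462 by at least 1), the route through the table of both changes gave 132 (49 higher, 83 lower, 123 by at least 1), and an adjusted p under 0.01 gave 601 (294 and 307). Centring gave 390 higher, and a mean of at least 50 gave 301 by at least 1. Differences changed sign by the other route for CLDN1 (0.55), ABCC9 (0.34), CDC25A (0.00) and CCL20 (-0.07), and after centring for CHEK1 (-0.04), DCK (-0.05), LDHA (-0.04) and CCL20 (-0.02), none of them called. The larger SE of the other routes follows from their construction, since they count more tables. No named response changed direction. Fits on counts, with edgeR or DESeq2, a replicate block or a library left out, were not run. No paired analysis was possible because the columns of the count table carry names that match no label. How far one library decides a value is therefore unknown here.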

Other observations

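Transfer RNA genes and MT-ND6 on the minus strand of the mitochondrial chromosome had more negative responses to gemcitabine in shE4F1 cells than most genes of its plus strand. This grouping was made after the values were seen and was not tested. All 9 tested minus-strand genes had a negative response, from -1.81 to -0.42 with a median of -1.26, and 2 of them fell (8 without the shared libraries). MT-ND6, a complex I subunit and the single mRNA encoded there, stood at 34476 and 17430 normalized counts (-0.96 ± 0.32, adjusted p = 0.161 in the same two-sided normal test). The 26 plus-strand genes ranged from -0.68 to 0.17 with a median of -0.39, and none was called (7 fell without the shared libraries). In shCTRL cells, from the authors' deposited table, the medians were -1.94 and -0.55. The strand setting of the counting is unknown here.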
